A study of Mus musculus with 17 samples.

Results

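Myc, Pvt1, Fam84b and Mycn are 4 of the 23420 genes in the count table, and they were taken by symbol and followed through all 17 libraries. They were chosen by their levels in single libraries, known from earlier work on these data, so their own values are given as a description with no test. The study sequenced RNA from mouse bone marrow mesenchymal stem cells (MSC) that carry a mutant p53, from tumour lines derived from such cells, and from clones of a tumour line with and without p53. All cells came from C57BL/6 mice with a knock-in of the R172H p53 allele, received no treatment and were at passage 2 to 20. There were 3 libraries of MSC, 6 of first generation tumour lines (TL1), 4 of second generation lines grown from tumours that TL1 cells formed after injection (TL2), 2 of first generation clones that keep mutant p53 (Mut clones) and 2 of first generation clones labelled as p53 knockout (KO clones). Tumour cells were kept on agar-coated plates in medium with fetal calf serum and leukaemia inhibitory factor, whereas MSC were grown in MSC medium, so cell type and medium cannot be told apart when they are compared. The labels do not say which tumour line the clones came from, nor that libraries came from separate animals or cultures, so p-values measure the spread between these libraries. Libraries are named by group, by the number that the labels give and, where a group holds a number more than once, by a letter.

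MYC is a transcription factor that pairs with MAX, binds DNA at E-box motifs and drives ribosome production, metabolism and entry into the cell cycle. MYCN is a close relative that uses the same partner and is best known from embryonic and neural cells. Pvt1 is a long noncoding RNA gene next to Myc and a known site of translocation and viral integration in tumours. Fam84b, now named Lratd2, is a protein-coding gene on the other side of Myc across a gene-poor stretch. In the RefSeq table of GRCm38.p6, Myc lies on chromosome 15 from 61985341 to 61990361 on the forward strand. Pvt1 begins 47624 bases after the end of Myc and spans 62037986 to 62260215 on the same strand. Fam84b lies at 60818996 to 60826105 on the reverse strand, its start coordinate 1.17 Mb before that of Myc. Mycn is on chromosome 12 from 12936093 to 12941836, on the reverse strand.

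Some libraries stand apart from their group in what follows. TL1 3b and TL2 3 were far above the other libraries of their groups for Myc and Pvt1, and TL2 3 also for Fam84b, so group differences are given with and without them. TL1 3a had the lowest levels of MYC-activated target genes of all libraries. Total counts ranged from 12215025 to 15962341. Trp53, the gene targeted in the KO clones, was at 80.8 and 89.6 CPM (counts relative to a common library total) there and at 358 and 280 in the Mut clones, against 197 to 263 in MSC and 122 to 311 in tumour lines. Of the defining markers of other cell types, Ptprc of blood cells and Epcam of epithelia had at most 5 counts in any library, and Cdh5 of endothelium at most 7. Other markers were present, some in the lines high in Myc. The summed level of 12 macrophage and blood markers was 7.01 to 62.8 CPM, with 45.9 in TL1 3b, 46.0 in TL2 3 and the highest in TL2 1, and Lyz2 had 240, 234 and 293 counts in MSC 1, TL1 3b and TL2 1. The summed level of 6 epithelial markers was 0.456 to 309 CPM and highest in TL2 3, with 23.9 in TL1 3b, and that of 6 endothelial markers was 0.630 to 4.50, with 3.81 in TL1 3b. The part of such cells in the values that follow was not tested. Of 12 mesenchymal stem cell markers, Pdgfra, Cxcl12, Lepr, Itgb1 and Cd44 were present in MSC, and Nt5e was low there, at 1.09, 3.07 and 1.21 CPM. The summed level of the 12 was 5435 to 9029 CPM in MSC, 1718 to 2896 in TL1 and 1787 to 2789 in TL2. In the tumour lines against MSC, 3 of the 12 were lower and 0 higher at an edgeR adjusted p under 0.05. That is 25%, beside 8.65% of all genes, with 6 differences positive and 6 negative.

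Myc was high in 4 libraries and lay in a narrow band in the other 13. In MSC it was at 162, 148 and 180 CPM, scaled for library composition. In the TL1 lines it was at 122 in 1a, 206 in 1b, 232 in 2a, 178 in 2b, 132 in 3a and 620 in 3b. In the TL2 lines it was at 207 in 1, 157 in 2a, 94.9 in 2b and 1042 in 3. Within each generation, then, 1 line was above all the others, and the remaining lines overlapped MSC. The Mut clones had 1762 and 1987 CPM, the highest of all libraries, and the KO clones 137 and 136, below every MSC library. Counts of Myc were 1354 or more in every library, and the 95% counting interval reached at most 5.47% above a value. Such intervals cover counting error only, not differences between cultures.

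Pvt1 spanned a wider range than Myc, with the same libraries at the top. It was at 8.70, 10.4 and 10.3 CPM in MSC. The TL1 lines had 14.7 in 1a, 16.2 in 1b, 19.2 in 2a, 9.99 in 2b, 14.8 in 3a and 142 in 3b. Among the TL2 lines it was at 12 in 1, 12.6 in 2a, 9.25 in 2b and 487 in 3. The same lines that were high in Myc were thus high in Pvt1, and here the Mut clones, at 514 and 675 CPM, were close to TL2 3. The KO clones, at 6.06 and 5.50 CPM, had the lowest values of all 17 libraries.

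Fam84b, which encodes a protein with an LRAT domain, was low in 14 libraries, at no more than 17 CPM, and high in 3. It was at 9.70, 10.4 and 2.35 CPM in MSC. In TL1 it was at 1.27 in 1a, 1.95 in 1b, 17 in 2a, 8.64 in 2b, 1.52 in 3a and 4.78 in 3b. In TL2 it was at 3.22 in 1, 4.92 in 2a, 5.95 in 2b and 964 in 3. TL1 3b, which was high in Myc and Pvt1, thus had a Fam84b value inside the range of the other TL1 lines. The Mut clones had 1161 and 1835 CPM and the KO clones 2.60 and 13. The KO clones overlapped MSC and the TL1 lines for this gene.

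**Figure D1:**
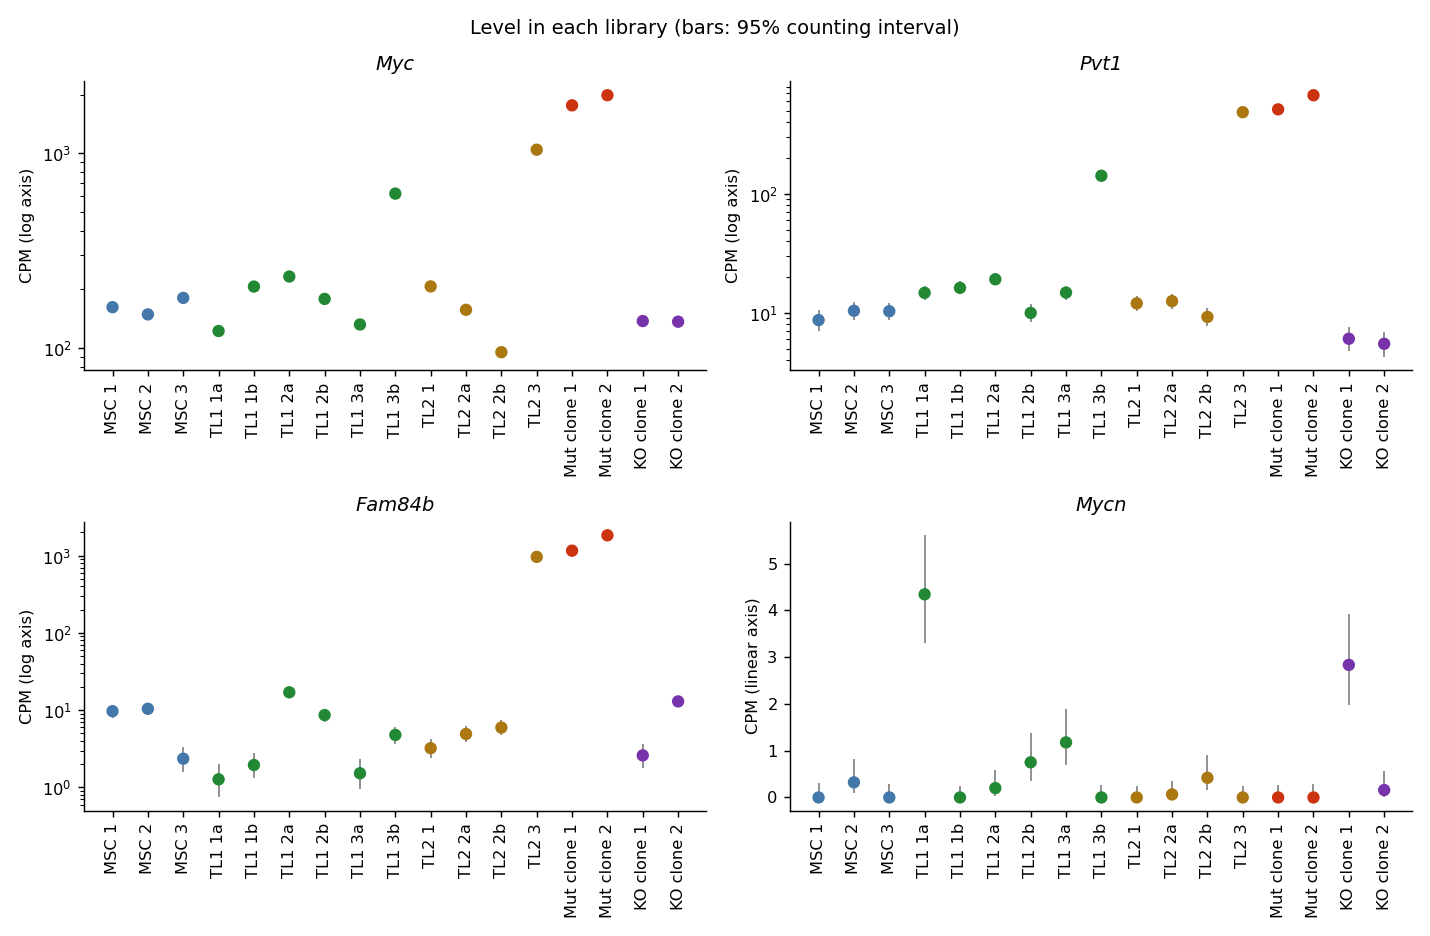
Level of Myc, Pvt1, Fam84b and Mycn in each of the 17 libraries, in CPM, on log axes for the first 3 genes and a linear axis for Mycn, coloured by group, with bars for the 95% counting interval. TL1 3b, TL2 3 and both Mut clones are the 4 highest for Myc and Pvt1, TL1 3b is not raised for Fam84b, and Mycn is highest in TL1 1a at 4.34 CPM.

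Mycn was barely detected. It had 0 counts in 8 of 17 libraries, namely MSC 1, MSC 3, TL1 1b, TL1 3b, TL2 1, TL2 3 and both Mut clones, which allows up to 0.193 to 0.251 CPM, taking 3 counts as the limit that a count of 0 allows. The 4 libraries that were highest in Myc were all among them, as were 4 of the other 13. The highest value was 58 counts in TL1 1a, or 4.34 CPM with a counting interval of 3.30 to 5.61. KO clone 1 followed with 36 counts (2.83 CPM, interval 1.98 to 3.92), whereas KO clone 2 had 2 counts. TL1 3a had 17 counts, TL1 2b 10, TL2 2b 6, MSC 2 4, TL1 2a 3 and TL2 2a 1. The 2 libraries with the most Mycn were therefore of different groups, each with a sister library at or near 0, and no group as a whole stood apart.

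By group mean, Myc was lowest in KO clones, at 137 CPM ± 0.734 (SD, n = 2), and then in MSC, at 163 ± 16.1 (n = 3). TL1 followed with 248 ± 187 (n = 6) and TL2 with 375 ± 447 (n = 4), and the Mut clones had 1874 ± 159 (n = 2). MSC, TL1 and TL2 were neighbours in this order that did not differ beyond their spread. The ranges of KO clones and MSC, and of Mut clones and every other group, did not overlap. The share of all genes with ranges apart in this way was not counted. Without TL1 3b and TL2 3 the tumour lines had a mean of 166 CPM ± 47.9 (n = 8). For Pvt1 the order was the same, from 5.78 ± 0.398 in KO clones and 9.82 ± 0.967 in MSC to 36.2 ± 52.0 in TL1, 130 ± 238 in TL2 and 595 ± 114 in Mut clones. Fam84b had another order, with TL1 lowest at 5.87 ± 6.14, then MSC at 7.49 ± 4.46 and KO clones at 7.79 ± 7.35, which overlapped one another, and TL2 at 245 ± 480 and Mut clones at 1498 ± 477. In the total RNA of a library, fewer cells that express a gene and less of its RNA per cell cannot be told apart.

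The 3 genes of chromosome 15 did not keep a fixed proportion. Pvt1 had between 4.04 and 12.1 counts for every 100 counts of Myc in the 13 libraries outside the high band. That proportion was 22.9 in TL1 3b, 46.7 in TL2 3, and 29.2 and 34 in the Mut clones, so Pvt1 was raised more than Myc in each of them. Fam84b had 0.945 to 9.54 counts per 100 counts of Myc in the 13 libraries and 0.771 in TL1 3b, the lowest of all. In TL2 3 it had 92.5, and in the Mut clones 65.9 and 92.4. These proportions are compared between libraries and say nothing of the levels of different genes relative to each other, since counts also follow transcript length. Myc, Pvt1 and Fam84b together took 0.0113% to 0.0277% of all counts in the 13 libraries, 0.0818% in TL1 3b, 0.261% in TL2 3, and 0.347% and 0.463% in the Mut clones.

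**Figure D2:**
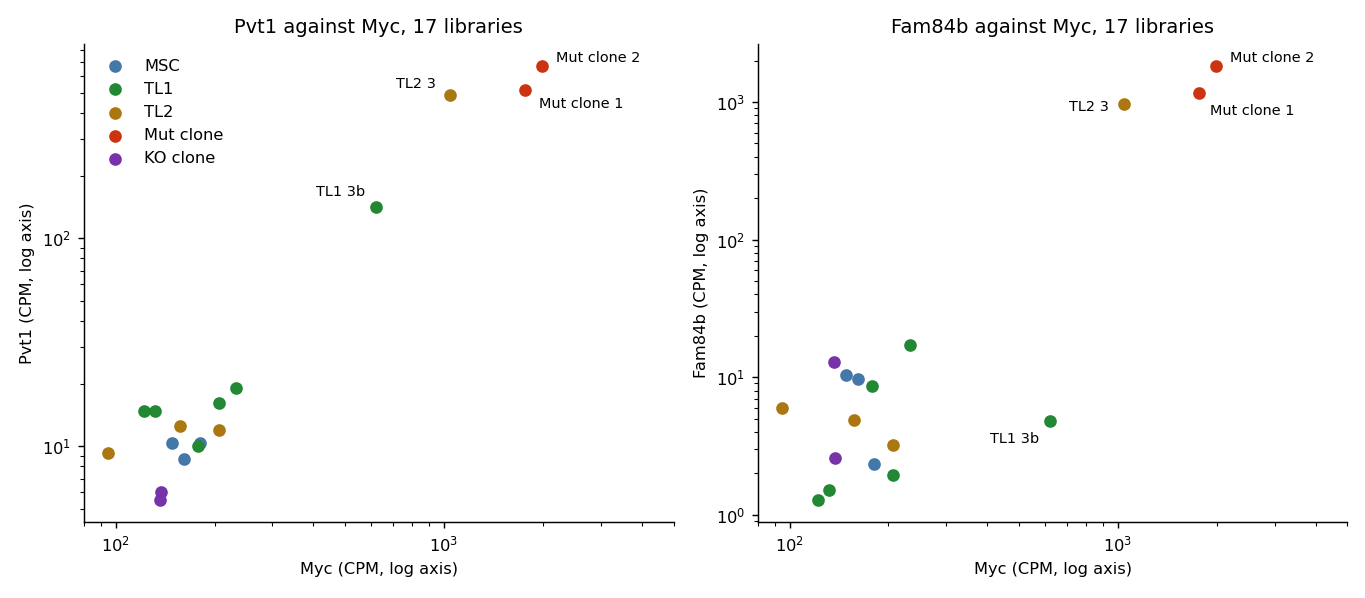
Pvt1 (left) and Fam84b (right) against Myc in each of the 17 libraries, in CPM on log axes, coloured by group. TL1 3b lies between the 13 libraries and the top 3 for Pvt1, at 142 CPM, but level with the 13 libraries for Fam84b, at 4.78 CPM.

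Over the 13 libraries alone, the log2 CPM of Myc and Pvt1 had a Pearson r of 0.43 and those of Myc and Fam84b an r of 0.18. Libraries were of similar depth, and 8 of the 13 were tumour lines. The labels do not say whether these lines share an origin. Over all 17 an r is used further on to rank genes by likeness and is not read as a relation, since the libraries fall into separate clusters. Myc and Mycn had an r of -0.55 over the same 13 libraries, with Mycn at 0 in 4 of them.

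The genes next to Myc were read for the same pattern of libraries along the chromosome. Of 25 genes of the count table that start within 3 Mb of Myc, 12 had at least 50 counts over all libraries. The long noncoding RNA 9930014A18Rik overlaps Fam84b on the opposite strand by 3141 bases and is named here after its values were seen. It was at 77.7 CPM in TL2 3 and at 119 and 118 in the Mut clones, against 1.20 in TL1 3b and 0.157 to 2.43 in the other 13. H2afy3, a transcribed pseudogene that lies within the span of Pvt1 on the opposite strand, had 46 counts in TL1 3b, 37 in TL2 3, and 76 and 49 in the Mut clones, against at most 4 in any other library, so it reached 50 counts only through these 4. Both neighbours thus followed the member they overlap, H2afy3 with TL1 3b included and 9930014A18Rik without it. The strand setting of the counting is not given in the sources used here, so reads of each pair cannot be told apart.

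Between Fam84b and Myc the table holds A1bg and D030024E09Rik, which had 14 and 11 counts in all. Each had 0 counts in all 13 libraries outside the high band. A1bg had 7 counts in TL2 3 and 5 and 2 in the Mut clones, with 0 in TL1 3b, and D030024E09Rik had 3 counts in TL2 3, 6 and 1 in the Mut clones and 1 in TL1 3b. Both are named after their values were seen, and counts this low give an order only.

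Further out the difference was small or not visible. Genes of the table between H2afy3 and Fam49b had at most 15 counts each over all libraries. Those between Trib1 and Fam84b had at most 66. Where the pattern ends within these 2 stretches cannot be told. On the Fam84b side, Trib1, 2.34 Mb before Myc, encodes a pseudokinase scaffold for protein breakdown. It was at 39.4 CPM in TL2 3, 31.7 and 27.8 in the Mut clones and 31.1 in TL1 3b, against 10.7 to 29.9 in the other libraries. Fam49b, 1.94 Mb after Myc, encodes a regulator of actin and was at 174 in TL2 3, 141 and 140 in the Mut clones and 75.1 in TL1 3b, against 41.9 to 129. These differences are far smaller than those of Fam84b, and both genes were named after their values were seen. Sqle, E430025E21Rik, Nsmce2 and Asap1 were within the range of the other libraries in all 4.

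**Figure D3:**
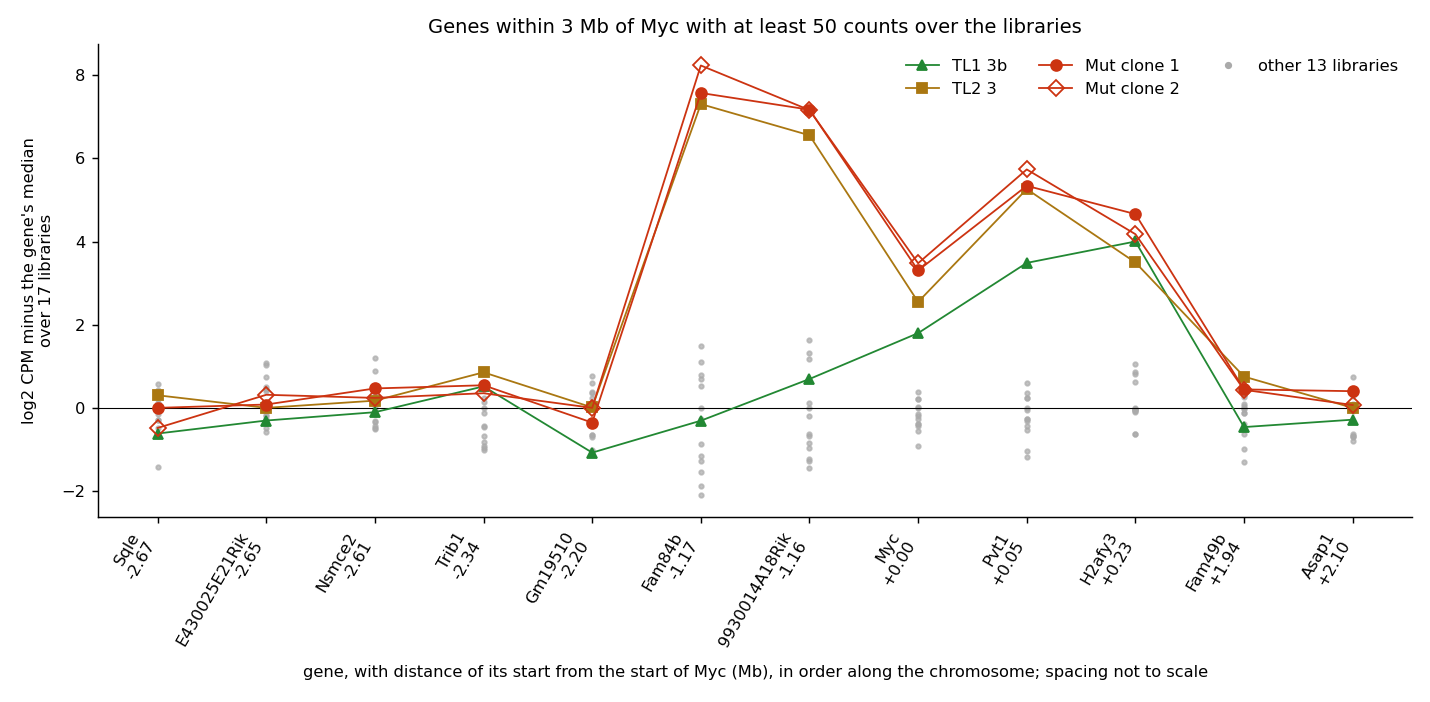
Log2 CPM minus each gene's median over the 17 libraries (y axis) for the 12 genes within 3 Mb of Myc with at least 50 counts, in order along the chromosome with the distance of each start from that of Myc in Mb; the 4 high libraries are drawn with lines that only join points of a library, the other 13 as grey points. TL2 3 and both Mut clones are high from Fam84b to H2afy3 and are nearer 0 on either side, and TL1 3b is high at Myc, Pvt1 and H2afy3; H2afy3 is shown because its counts in these 4 libraries took it past the 50 counts.

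The patterns counted next follow the levels of the members, so the counts are a description and no test. Of 14234 genes with at least 50 counts, 480 (3.37%) were higher in TL2 3 and in both Mut clones than in every other library, and 305 (2.14%) were higher in those 3 and TL1 3b than in the rest. A 10-fold gap between TL2 3 with both Mut clones and all the others was found for 3 genes (0.0211%), namely Fam84b, 9930014A18Rik and Crabp1. Crabp1 is a retinoic acid binding protein gene on chromosome 9, named after its values were seen. That gap follows the levels of Fam84b, so Fam84b and the RNA that overlaps it are not independent finds. Myc and Pvt1 did not have it, with TL1 3b, at 620 and 142 CPM, counted among the others.

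Around Mycn, neighbours were expressed where Mycn was not. Ddx1, an RNA helicase gene 0.283 Mb from the start of Mycn, was at 205 to 253 CPM in TL1 3b, TL2 3 and the Mut clones, where Mycn had 0 counts. It was highest in TL1 1a, the library highest in Mycn, at 308, and nearly as high in TL2 1, at 305, where Mycn had 0 counts, and it was lowest in KO clone 1, at 147, which was the next highest in Mycn. Nbas, which encodes a subunit of a vesicle tethering complex, was at 19.2 to 56.5 CPM in the 13 libraries and 68.8 in TL2 3. Fam49a, on the other side, had 199 counts over all libraries. In the tumour lines Fam49a was lower than in MSC, with a log2 difference of -3.71 (SE 0.975, edgeR adjusted p = 0.0349, Benjamini-Hochberg), whereas Mycn had 4 counts in MSC in all.

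The difference of the tumour lines from MSC in the fit of 13 libraries was 0.93 on the log2 scale for Myc (SE 0.690), 2.84 for Pvt1 (SE 1.40), 2.38 for Fam84b (SE 1.66) and 1.71 for Mycn (SE 1.81). Without TL1 3b and TL2 3, it was -0.0043 for Myc, 0.41 for Pvt1, -0.49 for Fam84b and 2.01 for Mycn. The Myc difference was thus near 0 without the 2 high lines, most of the Pvt1 difference was theirs, and they set the sign for Fam84b. With the replicate block it was 0.63 for Myc, 1.40 for Pvt1 and 0.68 for Fam84b. TL2 minus TL1, which shares those tumour libraries, was 0.60 for Myc (SE 0.627), 1.85 for Pvt1 (SE 1.12), 5.38 for Fam84b (SE 1.52) and -3.07 for Mycn (SE 1.63). Leaving out TL2 3 alone turned these to -0.71 for Myc, -1.69 for Pvt1 and -0.33 for Fam84b, with Mycn at -2.69. Leaving out both high lines gave -0.20 for Myc, -0.42 for Pvt1 and -0.38 for Fam84b, and the replicate block gave 0.32, 0.81 and 3.42. The sign of the difference between the generations in the 3 genes of chromosome 15 therefore rested on TL2 3.

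The KO clones were below the Mut clones for the 3 genes of chromosome 15, which were chosen by their levels. Of all 12238 genes tested, 12% were called lower in the KO clones at an edgeR adjusted p under 0.05. The log2 difference was -3.76 for Myc (SE 0.222), or 13.6-fold, -6.67 for Pvt1 (SE 0.284), or 102-fold, and -7.57 for Fam84b (SE 0.937), or 190-fold. It stayed between -3.84 and -3.69 for Myc and between -6.85 and -6.47 for Pvt1 when each of the 4 clones was left out in turn, and between -9.15 and -6.83 for Fam84b, whose KO clones differed from each other. Mycn did not pass the filter on low counts in this comparison. The clones are 2 against 2. MSC and the 8 tumour lines outside the high band carry mutant p53 as the Mut clones do, and had Myc at 94.9 to 232 CPM, a range that includes the KO clones. The part of p53 in the difference between the clones was not tested, and the labels do not name the line they came from.

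Markers of epithelium, stroma and macrophages differed in both directions in this comparison. The summed level of 6 epithelial markers was 111 and 35.3 CPM in Mut clones 1 and 2, nearly all of it Krt18, a keratin gene with 1513 and 428 counts. It was 3.62 and 3.59 in KO clones 1 and 2, most of it Krt14, at 3.07 and 2.39 CPM, with Krt18 at 3 counts and 1. Of the 6, 2 were tested: Krt18 fell (log2 difference -8.73, SE 0.956, edgeR adjusted p = 0.00447) and Krt14 rose (5.02, SE 0.727, edgeR adjusted p = 0.00518) in the KO clones. Of the mesenchymal stem cell markers, 3 were called higher and 2 lower of 11 tested, or 45.5% beside 26.1% of all genes. Of the 11, 3 had a positive and 8 a negative difference, with a median of -0.32. The summed level of the list was 1515 to 1566 CPM in the Mut clones and 3080 to 3381 in the KO clones. Itgb1 alone went from 838 and 807 CPM to 2009 and 2075. Pdgfrb rose from 9.42 and 2.39 CPM to 214 and 255, and Cxcl12 from a mean of 11.8 CPM ± 1.90 (SD, n = 2) to 339 ± 255 (n = 2). Pdgfra went down from 5.36 and 5.49 CPM to 1.57 and 1.67, and Ly6a from 50.3 and 28.3 to 13.4 and 10.1. Of 3 macrophage markers tested, Csf1r rose and Cd14 fell, or 66.7% beside 26.1% of all genes. The summed level of that list was 13.1 to 18.2 CPM in the Mut clones and 7.01 to 7.25 in the KO clones. TL2 3 had 3930 counts of Krt18 and TL1 3b 233, while the defining marker Epcam had at most 5 counts in any library. The part of these markers in the values of Myc and its neighbours was not tested.

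Genes of the wider MYC network were then read in the same fits, from lists set up with earlier results of these data known. KO clones differed from Mut clones in 3200 of 12238 genes tested at an adjusted p under 0.05, or 26.1%, with 14.2% higher and 12% lower, and the median difference of all genes was near 0. The tumour lines differed from MSC in 1147 of 13262 genes, or 8.65%, with 3.86% higher and 4.79% lower. TL2 differed from TL1 in 0%, that is in 0 genes by edgeR, with 246 genes at an unadjusted p under 0.05, 3 genes by DESeq2 and 0 by limma-voom.

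Among partners and rivals of MYC for MAX, Mxi1, which encodes a repressor that binds MAX in place of MYC, fell in the KO clones. It was at 138 and 97.7 CPM in the Mut clones and 34.2 and 19.8 in the KO clones (log2 difference -2.11, SE 0.339, edgeR adjusted p = 0.00744). The other 10 members tested were not called in this comparison, and the median of the 11 was -0.45. The share called was 9.09%, beside 26.1% of all genes. Against MSC, the tumour lines had less Mxd4, another MAX-binding repressor, at 21.8 CPM ± 14.7 (SD, n = 10) against 72.4 ± 15.9 (n = 3), and more Mlx, a MAX-like partner, at 52.0 ± 5.27 against 35.1 ± 3.89. The log2 differences were -1.76 (SE 0.432, edgeR adjusted p = 0.0265) and 0.61 (SE 0.144, edgeR adjusted p = 0.0221). The share called there was 18.2% of 11, beside 8.65% of all genes. Of 12 coactivators, Ruvbl2, an ATPase of chromatin remodelling complexes, fell in KO clones, from 270 and 210 CPM to 96.1 and 82.9 (log2 difference -1.41, SE 0.228, edgeR adjusted p = 0.00741). Ruvbl2 was the only one of the 12 called in the clones, or 8.33% beside 26.1% of all genes. None of the 12 was called in the tumour lines against MSC.

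Genes that set the stability of MYC protein were called in both directions, with 2 higher and 2 lower of 16 in the KO clones, a share of 25% beside the 26.1% of all genes. With 1 clone left out, 0 to 2 were called higher and 0 to 1 lower. C330027C09Rik, which encodes the phosphatase inhibitor CIP2A, rose from 68.9 and 57.5 CPM to 139 and 204 in the KO clones, and Skp2, a ubiquitin ligase subunit, from 34.2 and 32.6 to 58.5 and 75.5. Their log2 differences were 1.46 (SE 0.263, edgeR adjusted p = 0.0105) and 1.02 (SE 0.239, edgeR adjusted p = 0.0241). Ppp2r5a, a phosphatase subunit that promotes loss of MYC, fell by 1.09 (SE 0.295, edgeR adjusted p = 0.0381) and Usp36, a deubiquitinase, by 0.85 (SE 0.233, edgeR adjusted p = 0.0394). MYC protein itself was not analysed here.

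Of the transcription factors known to act on the Myc gene, 4 were higher and 3 lower of 17 tested in the KO clones, or 41.2% beside 26.1% of all genes. With 1 clone left out, 2 to 3 were called higher and 1 lower. Rbpj, the DNA-binding partner of Notch, fell from 602 and 893 CPM to 121 and 139 (log2 difference -2.51, SE 0.263, edgeR adjusted p = 0.00154). Notch1 itself rose from 1.23 and 4.14 CPM to 47.5 and 32.0, by 3.91 (SE 0.589, edgeR adjusted p = 0.00760). Among the TCF/LEF factors of the WNT pathway, Lef1 rose from 0.362 and 0.478 to 4.88 and 8.53 CPM, by 3.99 (SE 0.595, edgeR adjusted p = 0.00580), and Tcf7l1 from 7.10 and 8.60 to 20.2 and 23.7, by 1.5 (SE 0.299, edgeR adjusted p = 0.0147). Between tumour lines and MSC, Tcf7 was higher in the lines, at 26.5 CPM ± 8.70 (n = 10) against 4.85 ± 0.988 (n = 3), with a log2 difference of 2.47 (SE 0.354, edgeR adjusted p = 0.00154). Tcf7l1 was lower there, at 15.4 ± 6.02 against 87.1 ± 20.8 (log2 difference -2.47, SE 0.310, edgeR adjusted p = 0.000589). These 2 were the called members of 18 in that comparison, or 11.1% beside 8.65% of all genes.

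Known MYC-activated growth genes, which serve ribosome assembly, translation and polyamine synthesis, were then read in the clones. Of 35, 9 fell and 1 rose in the KO clones, and 28 had a negative difference, with a median of -0.47 against 0.00496 for all genes. In either direction the share called was 28.6%, beside 26.1% of all genes. By direction, the 9 lower and 1 higher of 35 stand beside 12% lower and 14.2% higher of all genes. Odc1, the rate-limiting enzyme of polyamine synthesis, fell from 690 and 973 CPM to 225 and 231 (log2 difference -1.85, SE 0.239, edgeR adjusted p = 0.00344). Wdr12, a ribosome assembly factor, fell from 116 and 145 CPM to 47.3 and 46.5 (-1.46, SE 0.222, edgeR adjusted p = 0.00618), and the helicase gene Ddx18 from 234 and 194 to 105 and 105 (-1.01, SE 0.207, edgeR adjusted p = 0.0158). Tfrc, the transferrin receptor, rose from 128 and 76.6 CPM to 320 and 334 (1.69, SE 0.286, edgeR adjusted p = 0.00838). Between 2 and 4 of the list were called lower when 1 clone was left out, and DESeq2 called 14.

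Other MYC-activated genes, of metabolism and the cell cycle, had 4 lower and 2 higher of 24 and a median of -0.37. In either direction the share called was 25%, beside 26.1% of all genes, of which 12% were lower and 14.2% higher. The glutamine transporter gene Slc1a5 fell from 265 and 232 CPM to 77.4 and 84.6 (log2 difference -1.60, SE 0.206, edgeR adjusted p = 0.00340). Shmt1, of one-carbon metabolism, fell by 0.93 (SE 0.261, edgeR adjusted p = 0.0420), and the replication helicase gene Mcm5 rose by 1.52 (SE 0.357, edgeR adjusted p = 0.0260).

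Genes that MYC is known to repress also split, with 3 higher and 3 lower of 8, or 75% beside 26.1% of all genes. With 1 clone left out, 1 to 3 were called higher and 0 to 2 lower. The cell cycle inhibitor Cdkn1a rose from 11.8 and 13.5 CPM in the Mut clones to 156 and 134 in the KO clones (log2 difference 3.53, SE 0.239, edgeR adjusted p = 0.000265). Cdkn1b, which encodes p27, rose from 12.6 and 9.63 to 29.8 and 44.5 (1.76, SE 0.316, edgeR adjusted p = 0.0104). Cdkn2b, of the p15 inhibitor, fell from 151 and 134 to 56.7 and 57.4 (-1.30, SE 0.208, edgeR adjusted p = 0.00717), and Ndrg2, a differentiation-linked gene, fell by 2.04 (SE 0.431, edgeR adjusted p = 0.0183). With library totals in place of composition scaling, the median of all genes moved to -0.13 in this comparison, and the median of the list changed from 0.13 to -0.0063.

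**Figure D4:**
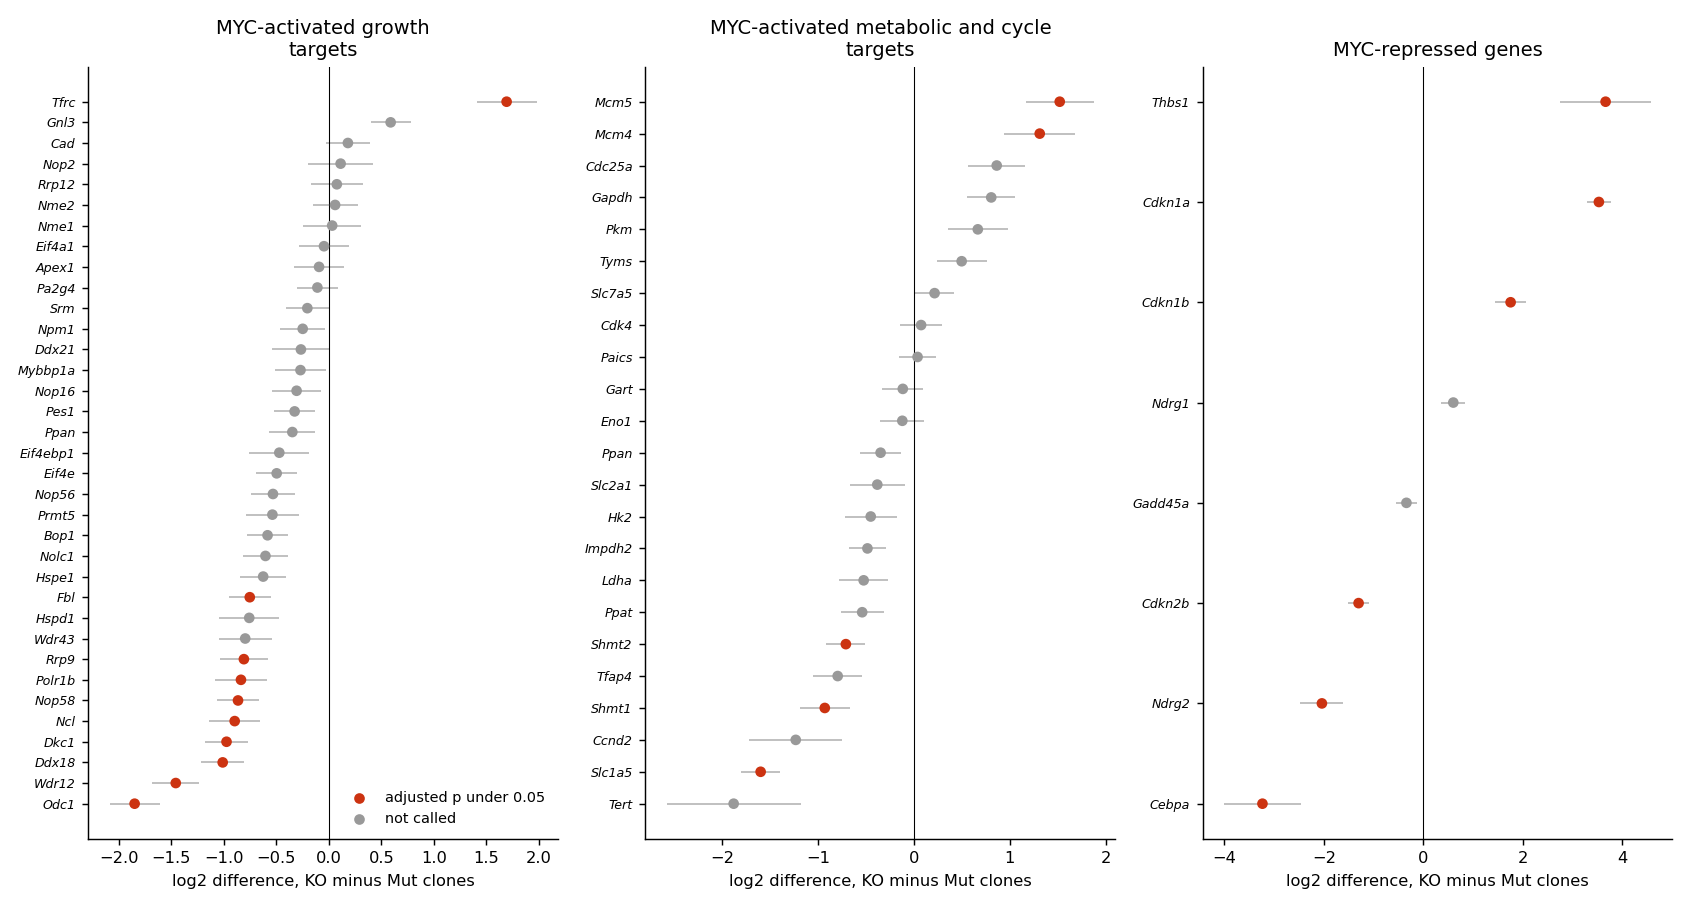
Log2 difference of KO minus Mut clones with its SE for genes of 3 MYC target lists (left to right: growth, metabolic and cycle, repressed), with genes at an adjusted p under 0.05 in red and the others in grey. Of the growth targets 28 of 35 lie left of 0, with Odc1 lowest at -1.85, and Cdkn1a and Thbs1 lead the repressed genes on the right.

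In the tumour lines against MSC, none of the 35 growth targets was called by edgeR and 33 had a positive difference, with a median of 0.37 against 0.0989 for all genes. DESeq2 called 1 of them. Ldha, the glycolytic lactate dehydrogenase, was the called metabolic target and fell from 2456 CPM ± 392 (n = 3) to 1121 ± 466 (n = 10), with a log2 difference of -1.10 (SE 0.309, edgeR adjusted p = 0.0451). Of 9 repressed genes, Ndrg1 rose by 1.38 (SE 0.331, edgeR adjusted p = 0.0233), and Cebpa, a differentiation factor, fell by 2.85 (SE 0.638, edgeR adjusted p = 0.0176). The share called was 22.2% for the repressed genes and 4.17% for the metabolic and cycle targets, beside 8.65% of all genes. The median of the repressed genes was 0.58, and -0.96 with the replicate block. When 1 MSC library was left out, the counts called in these target lists and in the MAX network were 0, except for 1 repressed gene lower without MSC 2. TL2 and TL1 differed in no member of any of these lists by edgeR.

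Read library by library, the growth targets were not high in all libraries with high Myc. Their level is given here as the median over the 35 genes of log2 CPM minus each gene's own median. It was 0.53 and 0.69 in the Mut clones and 0.10 and 0.11 in the KO clones. TL2 3 and TL1 3b, the other libraries high in Myc, had -0.03 and -0.20, within the range of the lines with low Myc. Those ran from -1.12 in TL1 3a through -0.35 in TL2 2b to 0.48 in TL1 2b and 0.71 in TL2 1, the highest of all libraries. MSC had -0.05, -0.19 and -0.49. The metabolic and cycle targets were at 0.46 and 0.26 in the Mut clones, -0.06 in TL2 3, -0.10 in TL1 3b and -1.16 in TL1 3a. The repressed genes were below their median in all 4 libraries high in Myc, from -0.53 in Mut clone 1 to -0.30 in TL2 3, but also at -0.44 in TL2 1 and -0.40 in KO clone 1. Over the 13 libraries outside the high band, Myc and the growth targets had a Pearson r of 0.50, and Myc and the repressed genes one of -0.24. Over the 15 libraries that leave out only the Mut clones, these were 0.14 and -0.48. Such values pool the groups and are not read as a relation.

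**Figure D5:**
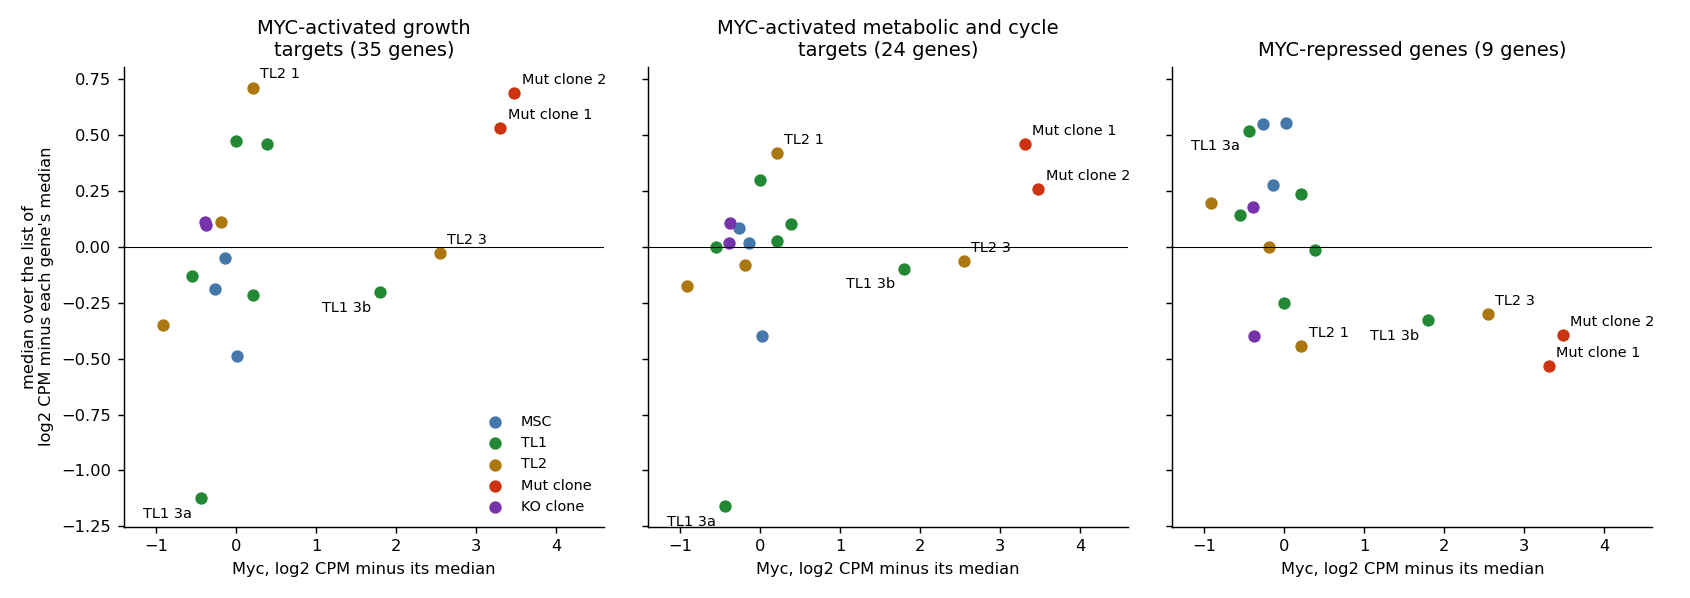
Median over each of 3 MYC target lists of log2 CPM minus each gene's median (y axis) against the log2 CPM of Myc minus its median (x axis) in the 17 libraries, coloured by group. The Mut clones are high on both axes for growth targets, whereas TL2 3 and TL1 3b are high in Myc with list medians of -0.03 and -0.20.

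Genes most like each member over the 17 libraries were ranked by Pearson r of log2 CPM, among the 10558 genes whose mean reached 5 CPM. Genes with Gm, Rik or clone names were then left out of the ranking. That took out 9930014A18Rik, which overlaps Fam84b, so the order below holds only among the genes that were kept. After Pvt1, at 0.969, Myc was most like Abl2 (0.953), Cd274 (0.940), Crlf3 (0.939) and Zcchc2 (0.932). Pvt1 was most like Myc, then Abl2 (0.948), Cd274 (0.944), Ccdc85c (0.943) and Pdxp (0.933). Fam84b was most like D1Ertd622e (0.903), Exosc4 (0.893), Cd274 (0.885), Soat2 (0.877) and Gas5 (0.875). Cd274, which encodes the immune checkpoint ligand PD-L1, was at 41.2 and 22.8 CPM in the Mut clones, 21.4 in TL2 3 and 5.38 in TL1 3b, against 1.42 to 5.61 elsewhere. Abl2, a tyrosine kinase gene, was at 193, 189, 166 and 136 CPM in the same order, against 52.4 to 102. For Mycn the closest were Fndc3c1 (0.842), Dhx38 (0.799), Psme4, Pdlim4 and Ahsa2 (0.788). With 4 libraries far from the rest, such a measure ranks genes mostly by those 4 libraries, and for Mycn by TL1 1a and KO clone 1.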

How the data were processed

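RNA was measured in 17 libraries by single-end sequencing of total RNA, per the labels' protocols. The submitters' processing notes name cutadapt, TopHat2 2.0.10, HTSeq 0.6.1p1, DESeq2 1.6.3 and the build mm10. The table the authors deposited holds raw counts by gene symbol. The sources used here do not give its strand setting or annotation, and 4 columns that match no sample were not used. CPM were computed on library sizes scaled by TMM over the 17 libraries, and log2 CPM with a prior count of 2. Comparisons used edgeR 4.0.16 under R 4.3.3 (filterByExpr, robust quasi-likelihood F-tests), with Benjamini-Hochberg adjustment over all genes tested and a threshold of 0.05: both tumour generations averaged against MSC, and TL2 minus TL1, from 1 fit of 13 libraries, and KO minus Mut clones from their own. The fits were tested on simulated data with independent libraries and the same fixed spread for every gene. That does not show how they behave on tumour lines as unlike each other as these. Alternatives were DESeq2 1.42.0, limma-voom 3.58.1, other scalings, no filter, a replicate block, leaving out each library, and, chosen after seeing the data, leaving out TL1 3b with TL2 3.

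Members and lists were chosen with earlier results of these data known. Besides the members, the text names genes within 1 Mb of Myc or Mycn with a group mean of at least 1 CPM, up to 4 called genes per list and comparison with the smallest adjusted p, the 5 genes most like each member and Trp53; exceptions are marked. Of the genes that this rule takes, 1 is not reported here, though the list counts include it. Of 23420 symbols, 23259 matched the RefSeq table of GRCm38.p6, 1689 by synonym. No 2 libraries of a group agreed within sampling noise. Deviations of TL1 and TL2 libraries with the same number in the labels correlated at 0.476, 0.376 and 0.490. Those of MSC with TL1 or TL2 correlated at -0.0319 to 0.201. Libraries with different numbers were not compared in this way, so whether the numbers pair the groups was not tested.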

Additional observations from a re-analysis of the deposited data

Results flagged for a closer look

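In groups of 4 to 6 tumour lines, a line was marked where its gap to the nearest other line was large for the range of its group. Of 30 pairs of an item and a group looked at, 12 were marked. Chance marks about 1 in 20 where items are not picked by their values; the members were picked by theirs, so their marks, and those of H2afy3 inside Pvt1, are descriptions and no test. TL1 3b was marked for Myc at 620 CPM (others 122 to 232), for Pvt1 at 142 (others 9.99 to 19.2) and for H2afy3 at 3.44 (others 0.0650 to 0.200). TL2 3 was marked for Myc at 1042 CPM (others 94.9 to 207), for Pvt1 at 487 (others 9.25 to 12.6), for Fam84b at 964 (others 3.22 to 5.95) and for H2afy3 at 2.38 (others 0.0657 to 0.259). H2afy3 lies within Pvt1, so its marks are not separate from those of Pvt1.

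Mycn was marked in TL1 1a at 4.34 CPM and in TL2 2b at 0.420, the latter only 6 counts. Near Mycn, Fam49a was marked in TL2 2b at 0.630 CPM (others 0 to 0.0643), also at few counts, and Nbas in TL2 3 at 68.8 CPM (others 34.8 to 37.2). The metabolic and cycle targets were lowest in TL1 3a, where the list median was -1.16 against -0.10 to 0.30 in the other TL1 lines.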

How the results depend on the processing

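For the clones, the members kept their direction in all alternatives run, and Myc moved by more than its spread with library totals, to -3.90. Leaving out 1 clone gave 1347 to 1755 genes called, -9.15 to -6.83 for Fam84b, -3.84 to -3.69 for Myc and -6.85 to -6.47 for Pvt1. In the tumour lines against MSC, DESeq2 called 2208 genes, and leaving out 1 library gave 304 (without MSC 3) to 1532 genes, with 349 and 687 without MSC 1 and MSC 2. Member ranges there were 0.25 to 1.09 for Myc, 1.04 to 3.03 for Pvt1, -0.51 to 2.69 for Fam84b and 0.68 to 5.4 for Mycn. Without TL1 3b and TL2 3 Myc was -0.0043, Pvt1 0.41 and Fam84b -0.49. For TL2 minus TL1, DESeq2 called 3 genes and leaving out 1 library 0; limma-voom gave 2.24 for Fam84b. Ranges were -0.71 to 1.11 for Myc, -1.69 to 3.12 for Pvt1, -0.33 to 6.07 for Fam84b and -5.14 to -2.68 for Mycn. Without both high lines Pvt1 was -0.42 and Fam84b -0.38. Mycn failed the filter in 3 of the fits that left out a library. The causes were not tested.

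With the replicate block, 1686 genes were called in the tumour lines against MSC, 968 of them lower against 635 without it, and 0 in TL2 minus TL1. Pairing by number left the signs of the members as they were, but in those comparisons lowered Myc to 0.63 and 0.32, Pvt1 to 1.40 and 0.81, and Fam84b to 0.68 and 3.42. No paired analysis was possible for the clones because their labels carry no numbers. Over all settings, 207 of the main values stayed within the spread between libraries, or within 1.5 times for counts, and 23 did not. The 207 include large shifts in the tumour lines against MSC. Among them are Myc at -0.0043 without the 2 high lines, and Pvt1 at 1.37 and Fam84b at 0.44 by limma-voom. The count of 207 therefore does not measure how firm the values of the members are. Depth limits Mycn, at 58 counts or fewer.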
